A study of Homo sapiens with 2 samples.

Results

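The genes described here build the centromere and kinetochore, run the spindle checkpoint and start chromosome separation. They are 43 of the 19775 genes named on the array, chosen by name with earlier results of these data known. Every probe set annotated to 1 of them and to no other gene was read, 82 probe sets in all. They were sorted into 6 subgroups: 14 inner centromere genes, 10 outer kinetochore genes, 7 checkpoint genes, 4 genes of the chromosomal passenger complex, 3 spindle kinase genes (AURKA, PLK1 and the AURKA activator TPX2) and 5 anaphase genes. All 43 had a measured signal.

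The study compared Calu-3 cells, an established human lung adenocarcinoma line used as an airway epithelial model, with and without cyclic stretch for 18 h. The stretched cells sat on flexible collagen I plates in MEM with 10% serum and were pulled between 0.7% and 20% elongation in a sine wave, 2 s on and 2 s off. The unstretched cells carry the same plating protocol in the labels. The protocol gives a density of about 80% at the start and the design text calls the cells confluent. Each condition was measured on 1 Affymetrix array (n = 1 per group), so no value below has a replicate error and no test between the conditions was possible.

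At each centromere, nucleosomes that carry the histone H3 variant CENP-A hold a constitutive set of proteins through the whole cell cycle. In mitosis that set recruits the outer kinetochore, which binds microtubules. Unattached kinetochores make the checkpoint signal that restrains CDC20 and the anaphase-promoting complex until every chromosome is attached. Most of these genes are known to be transcribed late in the cell cycle, under the MuvB complexes with B-MYB and FOXM1, which act through the CHR promoter element and CCAAT boxes.

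A signal is a linear intensity in arbitrary units. A difference is the log2 signal with stretch minus the log2 signal without it, in the brightest probe set of a gene. Signals under an array's median were raised to that median (the floor), which was 28.7 without and 28.3 with stretch. A gene counted as measured with a signal over the floor on either array, and was counted as higher or lower at a difference of 1, which is 2-fold. In 5818 genes with 2 or more probe sets over the floor in both arrays, the 2 brightest were compared. The SD of a single probe set's difference was 0.36, which covers probe noise only. Probe sets over the floor in only 1 array did not enter it. The spike-in controls differed by a median of -0.11. The epithelial identity was seen in bright EPCAM, KRT8, KRT18 and CDH1 signals in both arrays. Of the epithelial markers, ELF3 and MUC1 were lower in the stretched array, at -1.86 and -1.45. Of the markers of other cell types on the array, 3 of 8 for fibroblasts, 5 of 6 for leukocytes and 1 of 4 for endothelium were measured, and none differed 2-fold in its brightest probe set. The fibroblast marker COL1A1 was at -0.26 in that probe set, but its other measured probe sets went from 174 to 30.4 (-2.52) and from 149 to under the floor (-2.40, which bounds its size from below). The part of this marker in the results below was not tested. LYZ was the bright one, at 1220 and 1462. COL1A1, DCN (45.1 and 39.2), CD14 (78.6 and 55.1), ITGAM (35.3 and 34.9) and PECAM1 (57.7 and 51.3) were also over the floor in both arrays. COL1A2 was over it only without stretch, and CD3E and CD79A only with stretch. COL3A1, PDGFRB, PDGFRA, LUM, THY1, PTPRC, VWF, CDH5 and KDR were under the floor in both arrays.

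Of the 43 genes, 39 were at least 2-fold higher in the stretched array and none was at least 2-fold lower. Over all 13453 measured genes, 7.78% were higher by that limit and 7.49% were lower. The 43 genes were chosen with earlier results of these data known, so these shares are a description and not a test. All 43 differences lay above 0, beside 50.5% of those of all measured genes. The 43 ran from 0.15 to 2.78, with a median of 1.71 (3.26-fold) against a median of 0.005 for all measured genes. The middle of the 43 genes, from the lower to the upper quartile, ran from 1.31 to 2.13. At lower and higher limits, 41 of the 43 were at least 1.5-fold higher (17.9% of all measured genes), 28 at least 3-fold (2.87%) and 17 at least 4-fold (1.45%), and 33 of the 43 were within the top 5% of measured genes by difference. With arrays of whole cultures, more dividing cells and more of these transcripts per dividing cell cannot be told apart. The proliferation marker MKI67 went from 78.5 to 379 (4.84-fold).

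**Figure D1:**
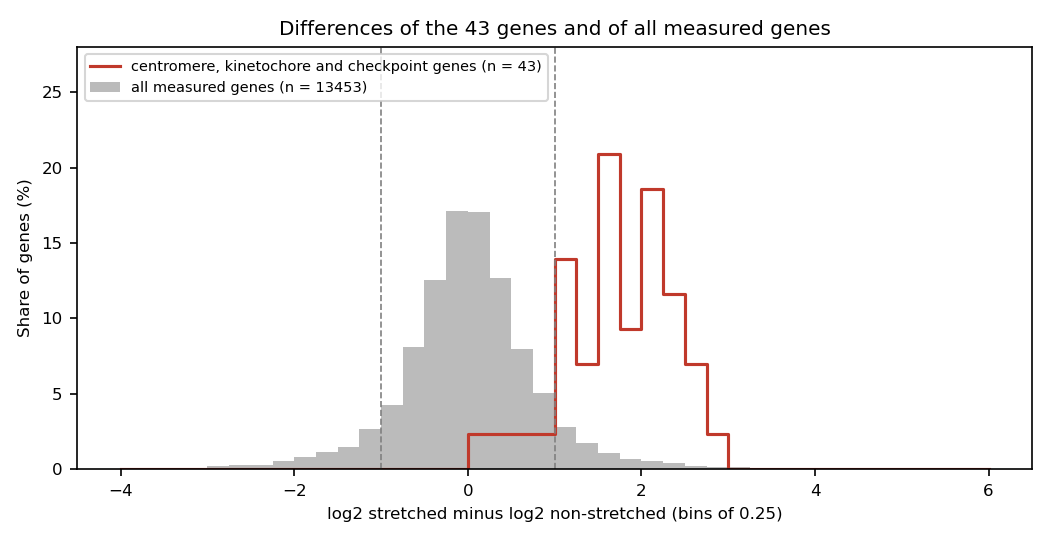
Share of genes in bins of the log2 difference between the stretched and the non-stretched array, for the 43 genes (red line) and for all 13453 measured genes (grey bars); dashed lines mark 2-fold. The 43 genes lie between 0.15 and 2.78, to the right of the centre of all genes near 0.

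**Figure D2:**
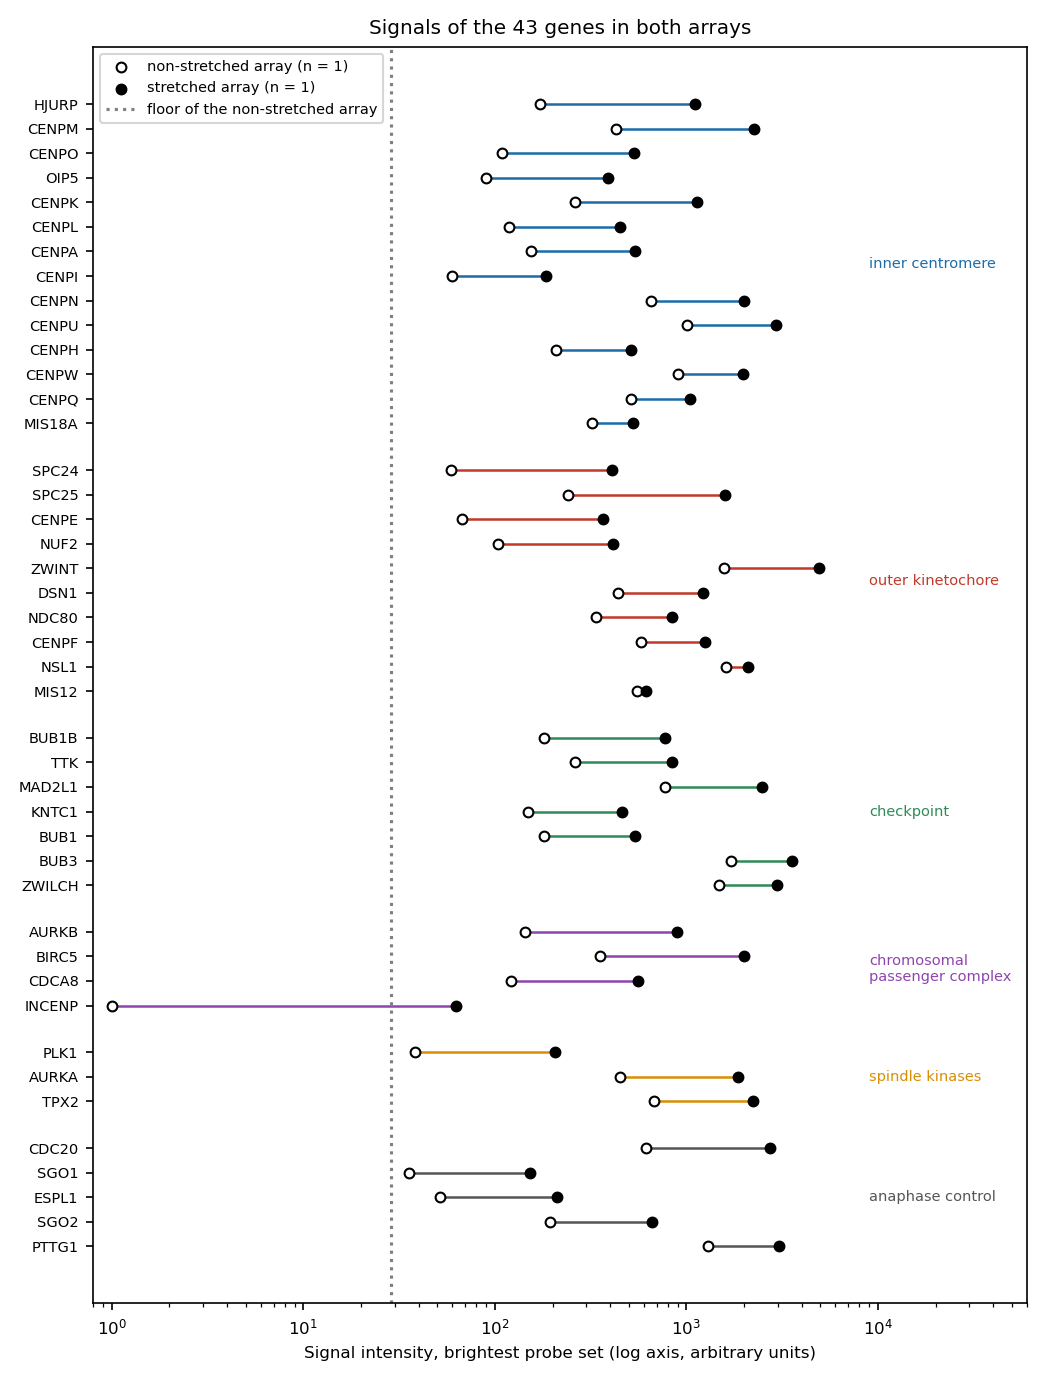
Signal of the brightest probe set of each of the 43 genes in the non-stretched (open) and stretched (filled) array, on a log axis, grouped by role, with 1 array per condition and no error bars. Every filled point lies to the right of its open point, by the least for MIS12; the open INCENP point lies under the floor.

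Promoter sequences of the genes were also described. The shares of genes with each motif depend on the choice of genes and not on the arrays. The part of the motifs in the differences was not tested. RefSeq promoters (GRCh38.p14) were found for 33 of the 43 genes, and the 250 bases before the start were searched on both strands, using the farthest upstream start where a gene has several. The CHR was searched as TTTGAA or TTTAAA, the CCAAT box as CCAAT and the E2F core as GCGGGAA or GCGCGAA; occurrences may overlap each other. A CHR lay within 100 bases of the start in 10 of the 33 genes (30.3%), against 8.3% of 27305 genes in the table. Within all 250 bases it was found in 13 (39.4%, against 22.2%). A CCAAT box was present in 23 (69.7%, against 33.0%) and an E2F core in 7 (21.2%, against 7.2%). A CHR within 100 bases together with a CCAAT box was found in 8 (24.2%, against 3.0%). The table also holds noncoding genes, and a match of letters is not a binding site.

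The promoters shown are those of the 3 genes with the largest differences among the genes that had a CHR within 100 bases and signals over the floor with and without stretch. They belong to CENPE, the kinetochore motor, PLK1, the mitotic kinase, and CDCA8, the passenger subunit borealin. Each is the 100 bases directly upstream of the gene start, 5′ to 3′ on the gene's strand, with CHR and CCAAT letters on either strand in capitals. CENPE is at chr4:103198344-103198443 on the minus strand, PLK1 at chr16:23678789-23678888 on the plus strand and CDCA8 at chr1:37692416-37692515 on the plus strand.
CENPE: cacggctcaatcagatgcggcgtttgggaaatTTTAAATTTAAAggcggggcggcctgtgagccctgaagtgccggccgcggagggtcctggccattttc
PLK1: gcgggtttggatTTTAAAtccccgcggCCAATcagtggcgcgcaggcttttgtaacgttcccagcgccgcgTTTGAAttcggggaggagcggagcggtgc
CDCA8: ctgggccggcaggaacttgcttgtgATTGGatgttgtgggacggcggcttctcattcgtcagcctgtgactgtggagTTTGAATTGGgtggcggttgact

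In PLK1 the nearest CHR ended 24 bases before the start and a CCAAT box stood farther out, at 69 bases. In CDCA8 the CHR ended at 18 bases and ran into an inverted CCAAT box, which ended at 14. Further inverted CCAAT boxes of CDCA8 ended at 71 and 111 bases. CENPE held a pair of adjoining TTTAAA runs, at 57 and 63 bases, and no CCAAT letters in the 250 bases searched. The 10 genes with a CHR within 100 bases had a median difference of 2.05 (range 1.13 to 2.45) and the 23 without it a median of 1.63 (range 0.15 to 2.78). These ranges overlap widely, and the genes with the largest differences, SPC24, SPC25, HJURP and AURKB, had no CHR letters within 100 bases. HJURP held such letters just outside that window, at 106 bases, and SPC25 at 242 bases. For the CCAAT box in the 250 bases, the median difference was 1.81 with it and 1.70 without. For the E2F core the order was the other way, with 1.65 with it and 2.01 without.

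**Figure D3:**
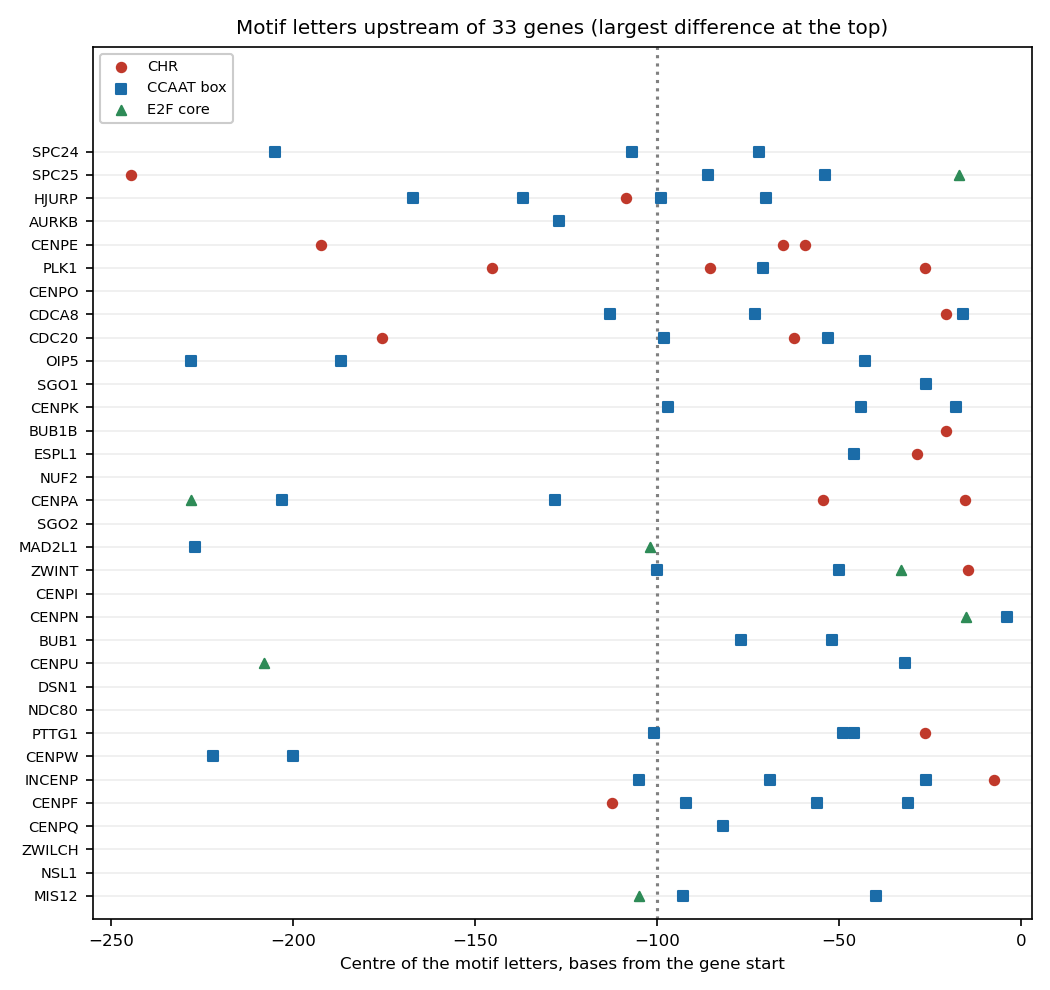
Positions of CHR (red circles), CCAAT box (blue squares) and E2F core (green triangles) letters in the 250 bases upstream of 33 genes, in bases from the gene start; genes are ordered by difference with the largest at the top, and the dotted line marks 100 bases. CHR letters within 100 bases occur in 10 genes spread from CENPE to INCENP and not in the 4 genes at the top.

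Among the inner centromere genes 13 of 14 passed 2-fold, and the median difference was 1.72. The largest difference was that of HJURP, the chaperone that deposits CENP-A, and the smallest that of MIS18A, which also acts in CENP-A loading. HJURP went from 172 to 1115 (6.47-fold), which ranks in the top 0.401% of measured genes. OIP5, the Mis18-beta subunit that marks centromeres for loading, went from 90.0 to 390.2 (4.33-fold, or a difference of 0.76 with the floor at the 75th percentile). CENPA itself went from 154 to 542 (3.51-fold) in its only probe set, which ends in _x_at and may bind related transcripts. MIS18A, the partner of OIP5 in the Mis18 complex, went from 320.0 to 524, a difference of 0.71. Its 3 probe sets lay between 0.63 and 0.99, so none reached 2-fold.

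The 10 subunits of the constitutive centromere network among the 43 genes were each at least 2-fold higher, by unequal amounts. In the CENP-H/I/K/M group, CENPM went from 429.9 to 2259 (5.25-fold) and CENPK from 263 to 1131 (4.30-fold). CENPI went from 59.6 to 185 (3.11-fold; its second measured probe set differed by 2.16), and CENPH from 209 to 511 (2.45-fold). CENPM and CENPH, which sit in the same complex, differed by 2.39 and 1.29, each in its only probe set. The CENPH probe set ends in _x_at. The probe set SD of 0.36 is that of a single difference and covers probe noise only, so the gap was not tested. CENPL and CENPN, which form a pair that contacts the CENP-A nucleosome, differed by 1.92 and 1.61. CENPL went from 119 to 448 (0.96 with the higher floor), and CENPN from 656 to 2003. The dimmest measured CENPN probe set, over the floor only with stretch, differed by at least 0.30.

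In the CENP-O group, CENPO went from 109 to 534 (4.90-fold, or a difference of 1.21 with the higher floor). CENPU, which docks PLK1 at the kinetochore, went from 1011 to 2953 (2.92-fold). Its other probe sets differed by 2.01 and 2.31. CENPQ, which binds CENPU, went from 514 to 1049, a difference of 1.03 that was just past 2-fold, and under it once the arrays were centred on their 75th percentiles. CENPW, a histone-fold subunit of the CENP-T group, went from 899.5 to 1980 (2.20-fold). Of the network subunits outside the 43 genes, CENPX was 2.89-fold higher, and CENPT, ITGB3BP (CENP-R) and CENPC were at 0.83, 0.72 and 0.55. The inner centromere genes among the 43 ran from 1.64-fold for MIS18A to 6.47-fold for HJURP.

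Of the 10 outer kinetochore genes 8 passed 2-fold, and the subgroup had a median difference of 1.56 and the widest range of all 6 subgroups. The NDC80 complex is the rod that grips microtubules. SPC24 and SPC25, which anchor that rod to the inner kinetochore, had the largest differences of all 43 genes by the brightest probe set. SPC24 went from 59.2 to 407 (6.87-fold) and SPC25 from 242 to 1583 (6.54-fold). NUF2 went from 104 to 416 (difference 1.999, just short of 4-fold) and NDC80 from 337 to 845 (2.51-fold). The dim signals of SPC24 and NUF2 without stretch make their differences depend on the floor. With the floor at the 75th percentile SPC24 was at 0.82 and NUF2 at 0.85, both under 2-fold and below NDC80 at 1.33, while SPC25 was still at 2.71. Averaging in the second SPC24 probe set, which is under the floor on both arrays, gave 1.28.

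The MIS12 complex, which links the centromere to the NDC80 rod, held the smallest differences. MIS12 went from 553 to 614, a difference of 0.15 that is below the probe set SD of 0.36 and became 0.04 once the arrays were centred on their 75th percentiles. NSL1 went from 1614 to 2097 (1.30-fold), and neither of its other measured probe sets reached 2-fold. DSN1, the subunit phosphorylated by Aurora B, went from 442 to 1224 (2.77-fold). PMF1, the remaining subunit, which is not among the 43 genes, went from 461 to 742 (1.61-fold). So 1 of the 4 subunits was at least 2-fold higher in this complex, against all 4 of the NDC80 complex, or 2 of the 4 (SPC25 and NDC80) with the higher floor.

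ZWINT, which binds KNL1 and helps bring the RZZ complex to the kinetochore, went from 1574 to 4947 (3.14-fold). CENPE, the motor that moves chromosomes to the spindle equator, went from 67.2 to 367 (5.47-fold, or a difference of 0.67 with the higher floor). CENPF, a large coat protein of the outer kinetochore that binds microtubules, went from 577 to 1254 (2.18-fold), and its second measured probe set gave nearly the same difference, 1.15. CENPE and CENPF differed by 2.45 and 1.12.

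**Figure D4:**
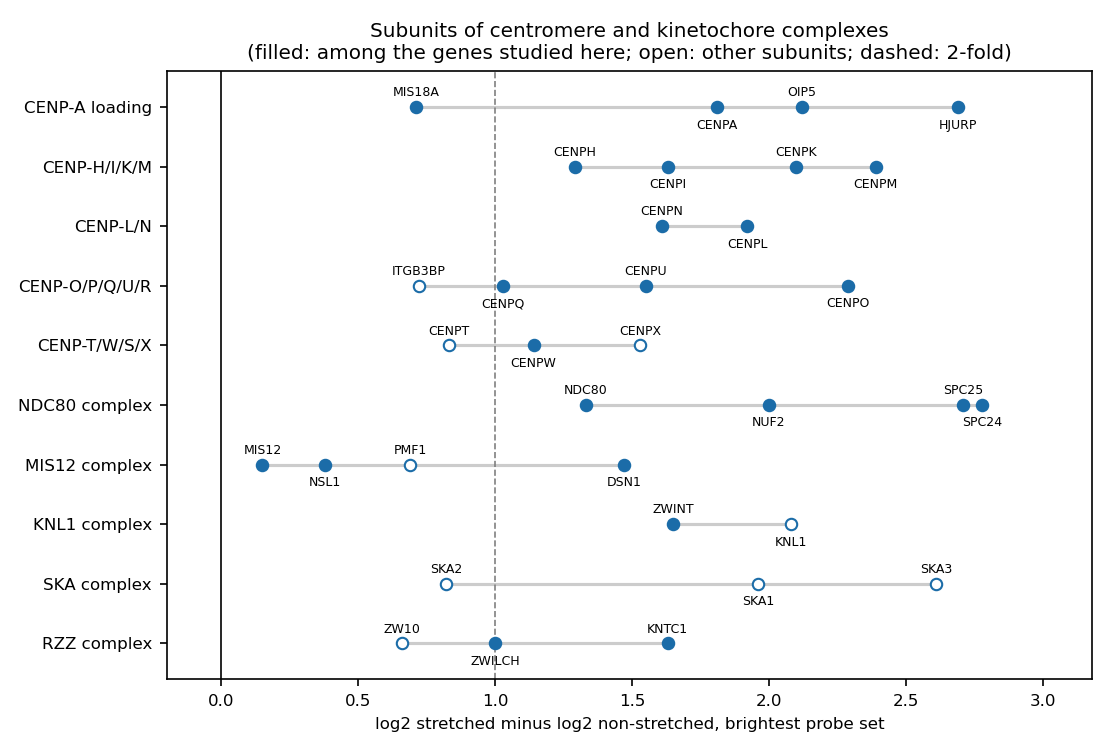
Log2 difference of each subunit of 10 centromere and kinetochore assemblies (brightest probe set; filled points are among the 43 genes, open points are other subunits; the dashed line is 2-fold). The NDC80 complex runs from 1.33 to 2.78 (SPC24 and NUF2 fall under 2-fold with the floor at the 75th percentile), while 3 of 4 MIS12 complex subunits lie under 2-fold.

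Of the 7 checkpoint genes 6 passed 2-fold, and the median difference was 1.63. BUB1B (BubR1), part of the inhibitor of CDC20, went from 181 to 774 (4.27-fold). TTK (MPS1), the kinase that starts the checkpoint signal, went from 261 to 843 (3.23-fold). MAD2L1 (MAD2), which captures CDC20, went from 776 to 2483 (3.20-fold), and its other probe sets differed by 2.03 and 2.48. BUB1, a checkpoint kinase that also marks centromeric chromatin, went from 180.4 to 540.1 (2.99-fold). Only 1 other of its 5 probe sets exceeded the floor, with stretch only, at a difference of at least 0.83. BUB1B stood highest and ZWILCH lowest among the 7.

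KNTC1 (ROD) and ZWILCH belong to the RZZ complex, which brings dynein and the MAD proteins to kinetochores. KNTC1 went from 149 to 462 (3.11-fold, and just under 2-fold with the higher floor). ZWILCH went from 1487 to 2969, a fold of 1.996 that fell just short of the limit, and its dimmer probe set differed by 1.64. The other RZZ subunit, ZW10, which also serves in membrane traffic, went from 575 to 909.8 (1.58-fold). BUB3, the adaptor that carries BUB1 and BubR1 to KNL1, depended on the probe set. Its brightest, which ends in _x_at, went from 1717 to 3543 (2.06-fold), and the others lay at 0.76, 0.25, 0.47 and 1.61. The median over the measured BUB3 probe sets was 0.76, under 2-fold, and centring on the 75th percentiles gave 0.94.

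**Figure D5:**
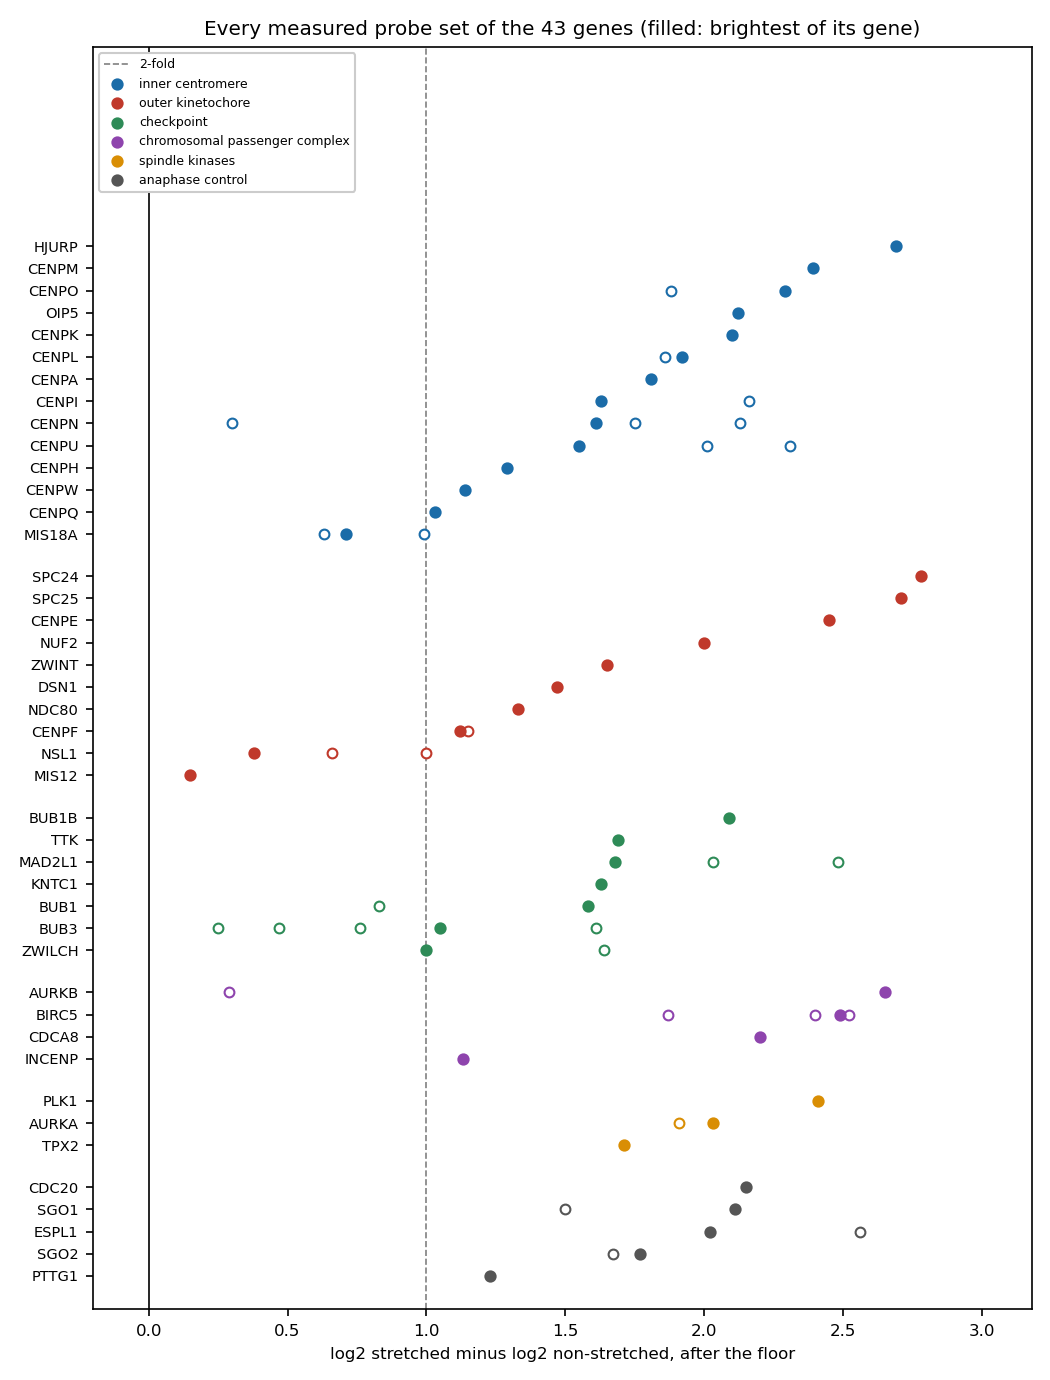
Log2 difference of all 72 measured probe sets of the 43 genes, by gene and role (filled: the brightest probe set of the gene; open: the others; dashed line: 2-fold; values after the floor). All 72 lie above 0 and 58 are at least 2-fold higher, and 4 of the 72 are over the floor only with stretch. By brightest probe set, 50.5% of all measured genes lie above 0 and 7.78% are at least 2-fold higher. BUB3, CENPN and AURKB have the most widely spread probe sets.

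The probe sets of a gene mostly gave similar values. All 72 measured probe sets of the 43 genes lay above 0, and 58 of them were at least 2-fold higher. The shares over all measured probe sets were not computed. By brightest probe set, 50.5% of all measured genes lay above 0 and 7.78% were at least 2-fold higher. Of the 72 probe sets, 4 were over the floor only with stretch (in AURKB, BUB1, CENPN and INCENP), so their sign followed from the floor. For 18 genes with several measured probe sets, AURKB, BUB1 and CENPN included, all of these lay above 0 in each gene. In 11 genes all were at least 2-fold higher. The pooled SD between probe sets of a gene was 0.35 over 16 genes with several probe sets over the floor on each array. The remaining 10 probe sets, from among BUB1, CENPI, CENPF, NSL1, BUB3, SPC24 and AURKA, were under the floor in both arrays. For 25 genes a single probe set was measured.

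The chromosomal passenger complex corrects wrong attachments through its kinase Aurora B, and all 4 of its genes passed 2-fold, at a median difference of 2.35. AURKB went from 143 to 897 (6.26-fold). Its other probe set went from 16.6, under the floor, to 35.0 and differed by at least 0.29. BIRC5 (survivin), which binds the mitotic mark on histone H3, went from 356 to 2007 (5.64-fold), and its 4 probe sets lay between 1.87 and 2.52. CDCA8 (borealin) went from 121 to 556 (4.61-fold). INCENP, the scaffold that activates Aurora B, was listed at a signal of 1 without stretch, under the floor, and 62.7 with it, at least 2.18-fold higher by its only probe set.

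Of the spindle kinases, PLK1, which acts at centrosomes, kinetochores and the midbody, went from 38.5 to 205 (5.32-fold), from a signal not far above the floor. AURKA, the centrosomal Aurora kinase, went from 452 to 1851 (4.10-fold), with a second probe set at 1.91. TPX2, which targets AURKA to the spindle, went from 680.5 to 2221 (3.26-fold). All 3 were higher.

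The 5 anaphase genes all passed 2-fold, and their median difference was 2.02. CDC20, the checkpoint's target and activator of the anaphase-promoting complex, went from 615 to 2736 (4.45-fold). ESPL1 (separase), which cuts cohesin, went from 52.0 to 210.4 (4.04-fold), and its other probe set differed by 2.56. PTTG1 (securin), the inhibitor of separase, went from 1301 to 3049 (2.34-fold) in a single _x_at probe set. The shugoshins guard centromeric cohesin: SGO1 went from 35.6 to 153 (4.31-fold) and SGO2 from 193 to 658 (3.40-fold). Separase and its inhibitor both stood higher, by 2.02 and 1.23. With the higher floor, ESPL1 and SGO1 were no longer measured.

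Genes of the same pathway outside the 43 were read from lists chosen by name, likewise with earlier results of these data known. Of 43 measured further genes of the centromere, checkpoint and anaphase-promoting complex, 13 were at least 2-fold higher (30.2%, beside 7.78% of all measured genes), none was at least 2-fold lower, and the median was 0.65. Among 19 further centromere and kinetochore genes 8 were at least 2-fold higher. SKA3 and SKA1, of the microtubule-tracking SKA complex, were 6.10-fold and 3.88-fold higher, and the microtubule depolymerase KIF2C 4.62-fold. SKA2 was 1.77-fold higher. KNL1, the checkpoint scaffold, went from 53.3 to 226 (4.24-fold), and its other measured probe set differed by at least 0.49.

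Of 7 further checkpoint genes the largest differences were those of TRIP13 and HASPIN. TRIP13, the ATPase that recycles MAD2, went from 307 to 2138 (6.97-fold). HASPIN, the kinase that places the histone mark read by survivin, went from 30.6 to 163 (5.32-fold). Its signal without stretch was just above the floor, which limits the size of this fold. The other 5 differed less than 2-fold, RAE1 and ZW10 included. Of 17 measured genes of the anaphase-promoting complex and its partners, 3 were at least 2-fold higher. These were the ubiquitin-conjugating enzymes UBE2C (5.28-fold) and UBE2S (2.65-fold) and the inhibitor FBXO5 (5.20-fold). None of the core subunits differed 2-fold in its brightest probe set, although dimmer probe sets of CDC23 and ANAPC5 were at 1.26 and 1.07. ANAPC16 stood lowest at -0.57, with 1 of its other probe sets at 0.72.

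Spindle assembly and cytokinesis genes had nearly the same median as the 43 genes, 1.71, with 17 of 21 at least 2-fold higher. CDCA5 (sororin) was 6.81-fold, CKAP2L 5.78-fold and KIF23 5.58-fold higher. All 28 genes of replication licensing and the fork passed 2-fold, at a median difference of 2.08 and a lowest difference of 1.09. The largest differences were those of MCM10 (3.44), CDC45 (3.23) and GINS2 (3.23, with -0.33 in a dimmer probe set). Whether the replication genes differed by more than the 43 genes could not be tested with 1 array per condition. Of 21 cell cycle drivers and inhibitors, 11 stood at least 2-fold higher and 1 lower by that limit. E2F2 was at least 9.95-fold higher and E2F1 8.73-fold higher. The CDK inhibitor CDKN1C was 3.91-fold lower. Among the known activators of late cell cycle promoters, FOXM1 went from 149.9 to 730.1 (4.87-fold) and MYBL2 (B-MYB) from 209 to 1346 (6.42-fold).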

How the data were processed

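Total RNA, 6 µg per sample, was biotin-labelled and hybridised to Affymetrix arrays, per the labels' protocols. The authors deposited 1 linear signal intensity per probe set (54675, of which 62 are controls); how they were summarised, scaled or called detected is not stated in the sources used here. The medians of the arrays differed by -0.017 on the log2 scale, below the 0.1 set as the limit for centring, so values were used as deposited. Names came from the platform annotation, brought up to date through gene IDs with RefSeq symbols. Of the other probe sets, 41091 had 1 gene, and 1801 with several genes and 11721 unnamed here were left out. The computation of differences is described with the results. Since there is 1 array per condition, no p-value was computed, and the number of arrays limits the precision.

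The 43 genes and all lists were chosen with earlier results of these data known. All 43 are named in the text, with up to 3 of each other list by size of difference; further genes were named after their values were seen. The complexes drawn were grouped after the values were seen. Alternatives changed the floor, the choice of probe set, the scaling and the fold limit. Scripts (Python 3.11.15, pandas 2.3.3, numpy 2.4.6, statsmodels 0.14.6) were checked on simulated arrays.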

Additional observations from a re-analysis of the deposited data

How the results depend on the processing

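Under every alternative run, all genes of the 43 that remained measured lay above 0 and none was at least 2-fold lower. With each array centred on its 75th percentile, 37 of 43 were at least 2-fold higher, against 6.34% of all measured genes, which had a median of -0.103. With the floor at the 75th percentile the count was 28 of 38, against 6.39% of all measured genes. That floor raises dim signals by construction, and the medians became 1.25 over all, 1.21 for inner centromere, 0.99 for outer kinetochore, 1.22 for checkpoint, 1.96 for passenger and 1.51 for anaphase genes. At least 2-fold higher were then 5 of 10 outer kinetochore genes and all 3 anaphase genes that were still measured. When probe sets with an _x_at or _s_at ending were dropped, 32 genes were left. Of these, 29 were at least 2-fold higher, against 8.62% of all measured genes. The medians were then 2.11 for inner centromere, 2.00 for outer kinetochore and 2.41 for the single spindle kinase gene left, which was at least 2-fold higher, as were all 3 anaphase genes left. With the median over a gene's measured probe sets, the passenger complex median was 1.84, because of AURKB. At 3-fold, 5 of 10 outer kinetochore genes were higher (2.87% of all measured genes). At 1.5-fold, 22 of 43 further pathway genes were higher (17.9% of all measured genes). Of 328 values of single genes under the alternatives, 301 moved by no more than the probe set SD of 0.36, the limit used, and 27 by more. With the floor at the 75th percentile 12 of 38 moved, with all probe sets averaged 7 of 43 and with their median 3 of 43. Without _x_at and _s_at probe sets 4 of 32 moved, with no floor 1 of 43 and with each change of scaling 0 of 43. Many values could hardly move, as 25 genes had 1 measured probe set, so the pooled count does not measure stability. INCENP differed by 5.97 with no floor, and BUB1 by 0.24 and CENPI by 0.77 with all probe sets averaged, dim ones included. No paired analysis was possible because each condition has 1 array. Dim signals without stretch limit the size of folds, among them those of PLK1, SGO1, INCENP, SPC24, CENPE, OIP5, NUF2, ESPL1, CENPI and CENPO. With the floor at the 75th percentile, PLK1, SGO1, INCENP, ESPL1 and CENPI were no longer measured.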

Other observations

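A probe set shared by CENPA and SLC35F6, left out above because it names both genes, went from 364 to 1042 (2.86-fold), beside 3.51-fold for the probe set of CENPA alone.

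Among the 16 genes with several probe sets over the floor on each array, the brightest probe set gave the smallest difference in 8 and the largest in 5. The 31 measured probe sets ending in _x_at or _s_at had a median difference of 1.61 and the other 41 a median of 2.00. Over all probe sets of a gene, MAD2L1 ranged from 1.68 to 2.48 and CENPU from 1.55 to 2.31, with the brightest lowest in both.

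Among the pocket proteins and MuvB subunits, named after their values were seen, RBL1 (p107) was 3.11-fold higher and RBL2 (p130), the pocket protein of quiescent cells, stood at -0.43. LIN9 and LIN54 exceeded the floor only with stretch, by at least 3.10-fold and 2.10-fold, while LIN37 and LIN52 were at -0.13 and 0.57. The CDK inhibitors CDKN1A and CDKN1B were at -0.55 and -0.53.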
